A study of Mus musculus with 4 samples.

Results

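The genes described here were 31 genes of the Nrf2 pathway and of antioxidant defence, taken by symbol from the 24322 symbols in each FPKM table: 3 regulators, 2 genes of heme and quinone metabolism, 14 genes that make, recycle or use glutathione, 8 genes of the thioredoxin and peroxiredoxin system, and 4 superoxide dismutase and catalase genes. All 31 were found in every library. RNA-seq libraries, 1 per mouse, had been made from the mTFP-positive retinal cells that FACS isolated from 4 mice. All mice carried *Rlbp1-CreERT2* and *R26-CAG-LoxP-mTFP1*, so that tamoxifen, given at P4, switched on the fluorescent protein mTFP1 in cells in which the *Rlbp1* promoter, that of a Müller glial gene, had driven Cre, and retinas were harvested at P14. The 2 control mice (numbers 7984 and 3911) were *Raxflox/WT* and thus had 1 floxed allele of *Rax*, and the 2 *Rax* iCKO mice (numbers 7983 and 3914) were *Raxflox/flox*. The strain label was 129S6, and the *Rlbp1* driver is also known to recombine in the retinal pigment epithelium. The comparison asked how the genes of oxidative defence stood in Müller glia after induced deletion of *Rax*, a homeobox transcription factor of retinal progenitors and Müller glia.

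Nrf2, encoded by *Nfe2l2*, is a transcription factor that is held in the cytoplasm and marked for degradation by Keap1. Oxidants and electrophiles modify Keap1, whereupon Nrf2 enters the nucleus, pairs with small Maf proteins and binds antioxidant response elements in front of genes for glutathione synthesis, conjugation and thioredoxin recycling. Müller glia hold most of the glutathione of the retina and pass its building blocks to neurons, and photoreceptors, which consume much oxygen, depend on this supply. Glutathione peroxidases and peroxiredoxins remove peroxides, glutathione transferases conjugate reactive aldehydes, and superoxide dismutases and catalase act on superoxide and hydrogen peroxide.

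Values below are FPKM (fragments per kilobase of transcript, scaled to the mapped reads of the library) as deposited, given in the order control 7984, control 3911, *Rax* iCKO 7983 and *Rax* iCKO 3914, and fold changes are differences in mean log2(FPKM + 1), *Rax* iCKO minus control. The deleted gene was checked first. *Rax* stood at 189 and 181 FPKM in the controls and at 111 and 98.4 FPKM in the *Rax* iCKO libraries, a ratio of means of 0.566 and a log2 fold change of −0.82 (SE 0.21), which did not pass the limma test across all genes. With neighbouring mouse numbers as a replicate block it passed (limma adjusted p = 0.0223). The estimated depth was between 9230000 and 12600000 mapped reads per library. Libraries of neighbouring mouse numbers resembled each other more than libraries of the same genotype: across genes, log2 levels correlated at 0.970 within 7983 and 7984 and within 3911 and 3914, at 0.952 between the controls and at 0.955 between the *Rax* iCKO libraries. These pairs, each with 1 mouse of either genotype, are called runs of mouse numbers here, although no label states that a run shared a litter or day. *Xist*, the RNA of the inactive X chromosome, stood at 24.5 and 21.2 FPKM in the controls and at 0.0119 and 0.00605 FPKM in the *Rax* iCKO libraries, so that genotype and the difference in *Xist* cannot be told apart in any comparison below. The Y-linked gene *Eif2s3y* was at 43.7 FPKM in *Rax* iCKO 7983 and listed at 0 in the other 3 libraries.

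Most of the 31 genes had lower levels in the *Rax* iCKO libraries, the glutathione transferases by the most of the roles, and none passed the test across all genes. The log2 fold change was below 0 for 27 genes and above 0 for 4 (*Hmox1*, *Gclc*, *Sqstm1* and *Srxn1*), with a median of −0.25, set beside a median of −0.00 over the 12363 genes tested. The median of the 31 genes was −0.16 without *Rax* iCKO 7983, −0.40 without control 7984, −0.13 without control 3911 and −0.35 without *Rax* iCKO 3914. After quantile scaling *Keap1* and *Sod3*, both close to 0, had log2 fold changes above 0, and *Sqstm1* was higher in *Rax* iCKO without overlap. In 13 genes (41.9%) the values of both *Rax* iCKO mice were under those of both control mice, which was the case in 14.1% of all genes tested, and in 0 genes both lay above, where the share of all genes was 15.4%. Within the runs, 21 genes (67.7%) were lower in the *Rax* iCKO mouse of both runs, where 31.7% of all genes were, and 2 genes, *Gclc* and *Sqstm1*, were higher in both, where 30.7% of all genes were. The share of all genes lower in both runs was larger among abundant genes. It was 53.4% at a mean of at least 50 FPKM, set beside 12 of 14 for those of the 31 genes in that range. At 100 FPKM it was 62.2%, set beside 10 of 12. The medians of the 31 genes within the runs were −0.23 (7983 minus 7984) and −0.30 (3914 minus 3911). With 2 libraries per genotype an exact permutation test of a single value cannot go below p = 0.333.

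By limma, 0 of the 31 genes had an adjusted p under 0.05 (0.0243% of all genes tested did), and the lowest adjusted p among them was as high as 1.0. An unadjusted p under 0.05 was reached by 4 genes, all lower in *Rax* iCKO, *Gsta4*, *Gstt1*, *Mgst1* and *Nqo1* in that order, and by 0 genes in the higher direction, against background shares of 1.6% lower and 1.26% higher. Without *Rax* iCKO 7983 this count was 0, without control 3911 it was 2 and without *Rax* iCKO 3914 it was 1. Without control 7984 it was 3, of which 2 were lower (*Gsta4* and *Gpx1*) and *Gclc* was higher, with a log2 fold change of 0.83. When the runs entered the model as a replicate block, the count was 11, all lower, where 8.87% of all genes were called lower, and *Gsta4* passed the adjusted threshold (limma adjusted p = 0.0249), as 0.574% of all genes did. Abundant genes as a whole also leaned downwards: among 2237 genes with a mean of at least 50 FPKM, the median log2 fold change was −0.14 and 19.8% had both *Rax* iCKO libraries below both controls, set beside −0.33 and 7 of 14 for those of the 31 genes in that range.

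**Figure D1:**
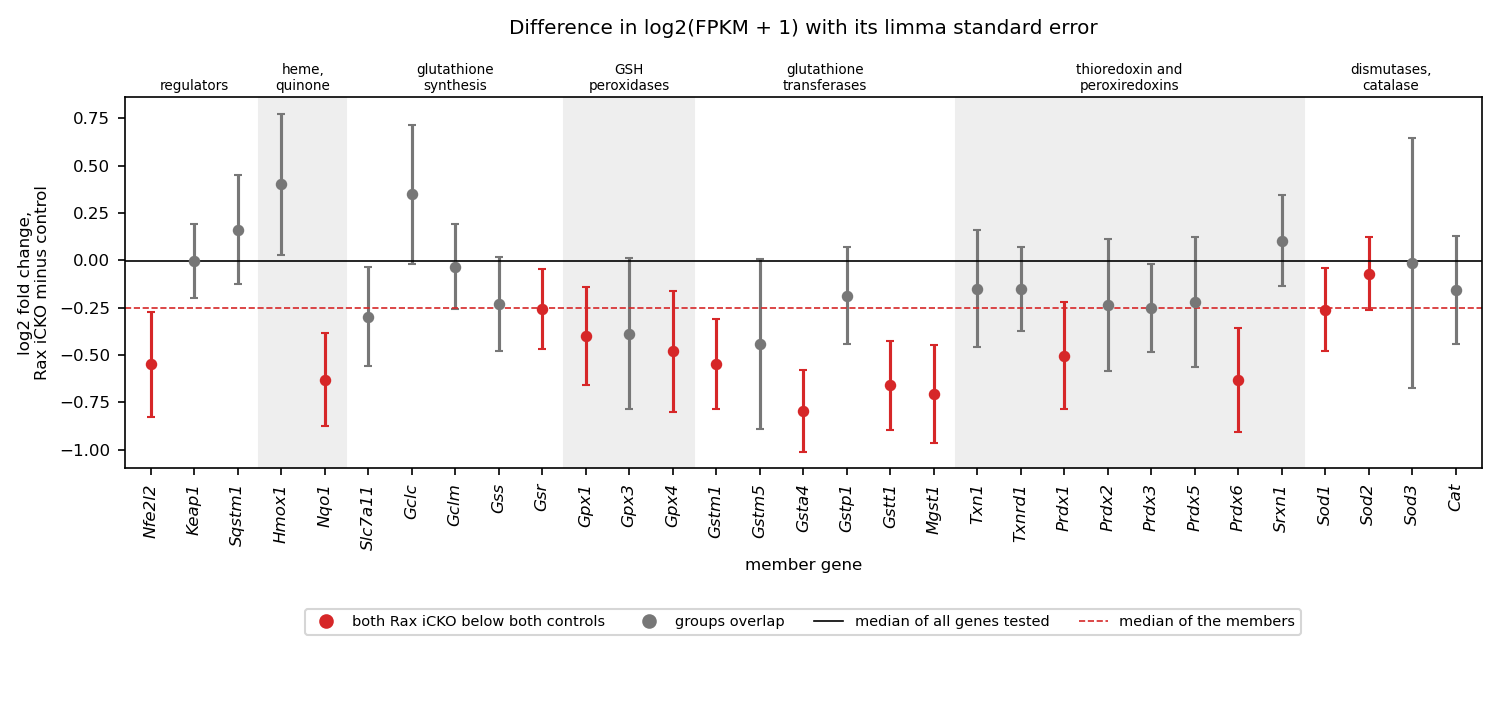
Difference in log2(FPKM + 1), *Rax* iCKO minus control, for each of the 31 genes (n = 2 libraries per genotype), ordered by role, with bars showing 1 limma standard error. The 13 genes in red had both *Rax* iCKO libraries below both controls, the lowest points are the transferases *Gsta4*, *Mgst1* and *Gstt1*, and 27 of the 31 points lie below 0.

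Among the regulators, the transcript of Nrf2 itself was lower in both *Rax* iCKO libraries and that of its inhibitor overlapped. *Nfe2l2* stood at 15.6, 12.2, 11.1 and 7.47 FPKM, a log2 fold change of −0.55 (SE 0.28). Both *Rax* iCKO values lay under both controls, with the higher of them close to the lower control, and the difference was −0.46 within one run and −0.63 within the other. Without *Rax* iCKO 3914 the log2 fold change of *Nfe2l2* was −0.29. *Keap1*, which encodes the substrate adaptor that marks Nrf2 for degradation, stood at 32.6, 30.5, 31 and 32 FPKM, and the genotypes overlapped (log2 fold change −0.00, SE 0.20). The transcript level does not measure the Nrf2 protein, which is set largely by its degradation. *Sqstm1* encodes p62, an autophagy receptor that binds Keap1 and is itself an Nrf2 target. It stood at 220, 299, 249 and 332 FPKM, higher in the *Rax* iCKO mouse of each run by 0.18 and 0.15 in log2(FPKM + 1), but the gap between runs exceeded that between genotypes and the groups overlapped (log2 fold change 0.16, SE 0.29, and 0.33 after quantile scaling).

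Of the 2 classical Nrf2 targets outside the glutathione and thioredoxin systems, *Nqo1* was lower in *Rax* iCKO in both runs and *Hmox1* in 1 run only. *Nqo1*, the quinone reductase often read as a reporter of Nrf2 activity, stood at 7.67 and 9.25 FPKM in the controls and at 5.25 and 4.92 FPKM in *Rax* iCKO, a mean of 8.46 ± 1.11 against 5.09 ± 0.231 (SD, n = 2 each). The groups did not overlap, and the log2 fold change was −0.63 (SE 0.25). *Nqo1* rested on an estimated 61.5 to 131 reads per library. *Hmox1*, the stress-inducible heme oxygenase, stood at 2.57, 4.93, 6.55 and 3.9 FPKM, from an estimated 44.3 to 83.9 reads. The highest and the lowest value came from the mice of one run, where *Rax* iCKO was higher by 1.08, while in the other run the difference was −0.28, and the log2 fold change of 0.40 (SE 0.37) was close to its standard error. It was 0.0355 without control 7984, 0.0910 without *Rax* iCKO 7983, 0.71 without *Rax* iCKO 3914 and 0.77 without control 3911.

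Among the 5 genes of glutathione supply, the genotypes were without overlap in the reductase only. This was 1 of 5 genes lower without overlap, where 14.1% of all genes were. *Gsr*, which returns oxidised glutathione to its reduced form, stood at 26.5, 26.2, 19.9 and 24.1 FPKM, and both *Rax* iCKO values lay below both controls (log2 fold change −0.26, SE 0.21). The fold change of *Gsr* was −0.12 without *Rax* iCKO 7983 and −0.39 without *Rax* iCKO 3914. *Slc7a11*, the cystine importer of system xc-, stood at 10.6, 14.5, 8.92 and 11.1 FPKM. It was lower in the *Rax* iCKO mouse of each run, but the values overlapped because 1 *Rax* iCKO library lay above 1 control (−0.30, SE 0.26, and −0.0884 without control 3911, −0.15 without *Rax* iCKO 7983 and −0.50 without control 7984). *Gclc*, the catalytic subunit of the rate-limiting enzyme, stood at 21, 10.2, 22.2 and 16.3 FPKM, with control 3911 apart from the other 3 libraries (log2 fold change 0.35, SE 0.37). *Gclm*, its modifier subunit, lay between 20.5 and 26 FPKM (−0.03, SE 0.22). *Gss*, glutathione synthetase, lay between 24.8 and 27.6 FPKM in 3 libraries and at 18.5 FPKM in *Rax* iCKO 7983 (−0.23, SE 0.25). In both subunit genes and the synthetase the genotypes overlapped.

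All 3 glutathione peroxidase genes had log2 fold changes below 0. Of these, *Gpx1* and *Gpx4* were lower without overlap between genotypes, where 14.1% of all genes were. *Gpx4*, which reduces lipid peroxides in membranes, stood at 573, 789, 421 and 552 FPKM (log2 fold change −0.48, SE 0.32), so that the higher *Rax* iCKO library lay just below the lower control, and the difference was −0.44 in one run and −0.52 in the other. With library medians made equal the genotypes of *Gpx4* overlapped, and its log2 fold change was −0.25 without control 3911, −0.28 without *Rax* iCKO 7983 and −0.24 after quantile scaling. *Gpx1*, the cytosolic enzyme, stood at 84.5, 127, 77.4 and 79.6 FPKM (−0.40, SE 0.26). The *Rax* iCKO values of *Gpx1* were close together and the controls apart, with differences of −0.12 and −0.67 within the runs and a log2 fold change of −0.11 without control 3911 and −0.69 without control 7984. *Gpx3*, the secreted enzyme, was low in these cells. It stood at 4.77, 4.75, 5.39 and 2.04 FPKM, an estimated 26.2 to 83.7 reads, and its log2 fold change of −0.39 (SE 0.40) rested on *Rax* iCKO 3914, without which it was 0.15.

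The glutathione transferases, which conjugate glutathione to electrophiles, had a median log2 fold change of −0.60, and all 6 were lower in the *Rax* iCKO mouse of both runs, set beside 31.7% of all genes. In 4 of the 6 both *Rax* iCKO values lay under both controls, set beside 14.1% of all genes, and 3 of the 6 had an unadjusted limma p under 0.05, set beside 1.6% of all genes. *Gstm5*, *Gstp1*, *Gstt1* and *Gsta4* had a mean of at least 100 FPKM. In that range 62.2% of all genes were lower in both runs and 22.3% were lower without overlap. *Gsta4*, whose enzyme acts on the lipid peroxidation product 4-hydroxynonenal, stood at 167 and 174 FPKM in the controls and at 90.8 and 105 FPKM in *Rax* iCKO. The means were 170 ± 4.6 and 98.0 ± 10.2 (SD, n = 2 each), a ratio of 0.575 and a log2 fold change of −0.79 (SE 0.21), the lowest of all 31 genes. The difference was −0.87 in one run and −0.72 in the other, and it stayed between −0.69 and −0.90 when any 1 library was left out.

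*Gstt1*, a theta-class transferase, stood at 188, 143, 108 and 98.7 FPKM (ratio of means 0.625, log2 fold change −0.66, SE 0.24), and *Mgst1*, a microsomal transferase that also has peroxidase activity, at 13.2, 13.2, 6.42 and 9.26 FPKM (0.593, −0.70, SE 0.26). In both genes the *Rax* iCKO values lay clear of the controls. *Mgst1* was less shifted without *Rax* iCKO 7983, at −0.47, and more without *Rax* iCKO 3914, at −0.94. *Gstm1*, a mu-class transferase, stood at 57.8, 57.1, 32.7 and 46.4 FPKM (−0.55, SE 0.24), without overlap, and its log2 fold change was −0.30 without *Rax* iCKO 7983. *Gstm5*, of the same class, differed more between runs than between genotypes, at 455, 824, 326 and 623 FPKM (−0.44, SE 0.45, and −0.23 after quantile scaling). *Gstp1*, the pi-class transferase, had the smallest shift of the family, at 151, 203, 139 and 171 FPKM (−0.19, SE 0.26, and −0.05 after quantile scaling). The mu-class and pi-class genes have close paralogs in the mouse, so the authors' estimates may split reads among copies, and the values of *Gstm1*, *Gstm5* and *Gstp1* are uncertain to that extent.

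**Figure D2:**
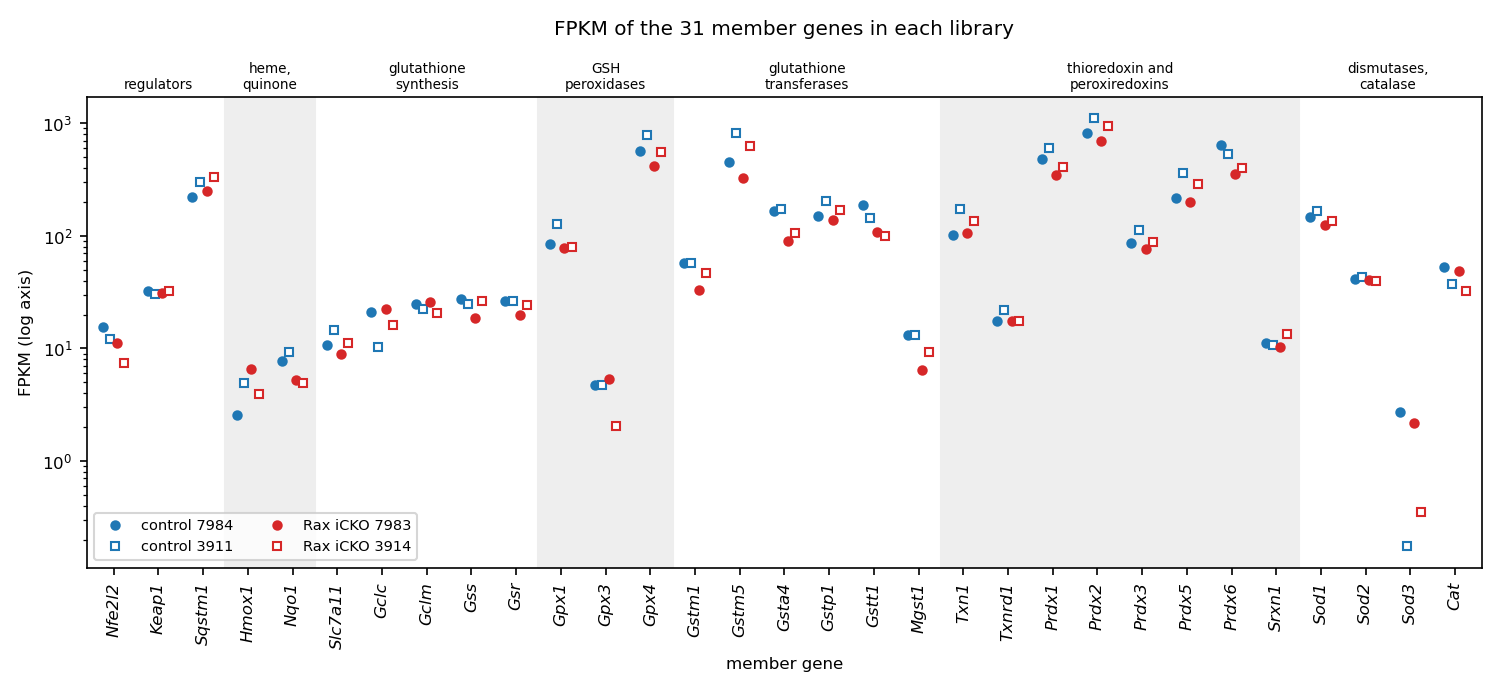
FPKM of each of the 31 genes in each of the 4 libraries on a log axis, ordered by role, with controls in blue, *Rax* iCKO in red, circles for mice 7983 and 7984 and squares for mice 3911 and 3914. Levels ran from 0.175 FPKM (*Sod3* in control 3911) to 1106 FPKM (*Prdx2* in control 3911), and for *Gstm5*, *Prdx5* and *Sod3* circles and squares lie further apart than colours.

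In the thioredoxin system, the peroxiredoxins *Prdx1* and *Prdx6* (2 of 8 genes) were lower without overlap, and the other 6 genes overlapped between genotypes. Of all genes tested 14.1% were lower without overlap, and of those with a mean of at least 100 FPKM, the range of both peroxiredoxins, 22.3% were. *Prdx6*, which uses glutathione as its reductant, stood at 644, 528, 357 and 397 FPKM, means of 586 ± 81.5 and 377 ± 27.9 (SD, n = 2 each) and a log2 fold change of −0.63 (SE 0.27). *Prdx1*, an Nrf2 target that reduces peroxides in the cytosol, stood at 480, 597, 345 and 413 FPKM (−0.50, SE 0.28), with differences of −0.47 and −0.53 within the runs. In both genes every *Rax* iCKO value lay below every control value, and after quantile scaling the log2 fold changes were −0.41 for *Prdx6* and −0.30 for *Prdx1*. *Prdx2*, the most abundant of the 31 genes, stood at 826, 1106, 696 and 945 FPKM (−0.24, SE 0.35). The fold change of *Prdx2* was −0.0163 without *Rax* iCKO 7983, −0.0262 without control 3911, −0.45 without control 7984, −0.46 without *Rax* iCKO 3914 and −0.0012 after quantile scaling.

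*Prdx2*, *Prdx3* of the mitochondrion (76.7 to 112 FPKM, −0.25, SE 0.23) and *Prdx5* (201 to 361 FPKM, −0.22, SE 0.34) were each lower in the *Rax* iCKO mouse of both runs, but the runs stood further apart than the genotypes and the groups overlapped. The fold change of *Prdx3* was −0.0645 without control 3911, −0.16 without *Rax* iCKO 7983 and −0.44 without control 7984, and after quantile scaling it was −0.15, lower without overlap, and that of *Prdx5* was −0.0592. *Txn1*, thioredoxin, stood at 103, 172, 107 and 134 FPKM (−0.15, SE 0.31). *Txnrd1*, the selenoenzyme that reduces it, lay at 22 FPKM in control 3911 and at 17.4 to 17.6 FPKM in the other 3 libraries (−0.15, SE 0.22). *Srxn1*, sulfiredoxin, which restores over-oxidised peroxiredoxins and is a known Nrf2 target, stood at 11.1, 10.7, 10.3 and 13.5 FPKM (0.10, SE 0.24). For these 3 genes of peroxiredoxin recycling the genotypes overlapped, with *Txn1* and *Srxn1* each higher in *Rax* iCKO in one run and lower in the other. After quantile scaling the log2 fold changes were −0.0110 for *Txn1* and 0.0554 for *Srxn1*.

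Of the superoxide dismutases, the intracellular enzymes were lower without overlap, where 14.1% of all genes were, but by small amounts. *Sod1*, the cytosolic copper-zinc enzyme, stood at 146, 167, 125 and 137 FPKM (log2 fold change −0.26, SE 0.22, −0.16 without control 3911 and −0.11 after quantile scaling). *Sod2*, the mitochondrial manganese enzyme, stood at 41.7, 42.7, 40.3 and 40 FPKM, and its fold change of −0.07 (SE 0.19) was smaller than its standard error. After quantile scaling the genotypes of *Sod2* overlapped, with a log2 fold change of −0.0232. *Sod3*, the secreted enzyme, was low throughout and lowest in 1 run, with 2.72 and 2.18 FPKM in control 7984 and *Rax* iCKO 7983, and 0.175 and 0.349 FPKM in control 3911 and *Rax* iCKO 3914. These values corresponded to an estimated 121, 72.2, 5.72 and 11.4 reads, and the log2 fold change was −0.01 (SE 0.66). The pericyte list, of which 1 gene was tested, split the same way, with sums of 26.9 and 24.4 FPKM in the former run and 11.1 and 13.2 FPKM in the latter. So did the endothelial list, at 491.2 and 407.1 FPKM against 244.6 and 257.8 FPKM, and 26.8% of all genes tested. The parts of pericytes and endothelial cells in the *Sod3* values were not tested. *Cat*, catalase of the peroxisome, stood at 52.7, 37.5, 48.6 and 32.7 FPKM, also apart by run (−0.15, SE 0.29).

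The run of mouse numbers separated 14 of the 31 genes irrespective of genotype. Mice 7983 and 7984 both lay above mice 3911 and 3914 for 5 genes, *Gclc*, *Gclm*, *Gpx3*, *Sod3* and *Cat*, where 26.8% of all genes tested did. The reverse held for 9 genes, *Sqstm1*, *Slc7a11*, *Gstm5*, *Gstp1*, *Txn1*, *Txnrd1*, *Prdx2*, *Prdx3* and *Prdx5*, where 29.1% of all genes did. None of these 14 is among the 13 genes that were lower in *Rax* iCKO without overlap, as the 2 patterns exclude each other. The plot of differences within each run shows which genes moved alike in both.

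**Figure D3:**
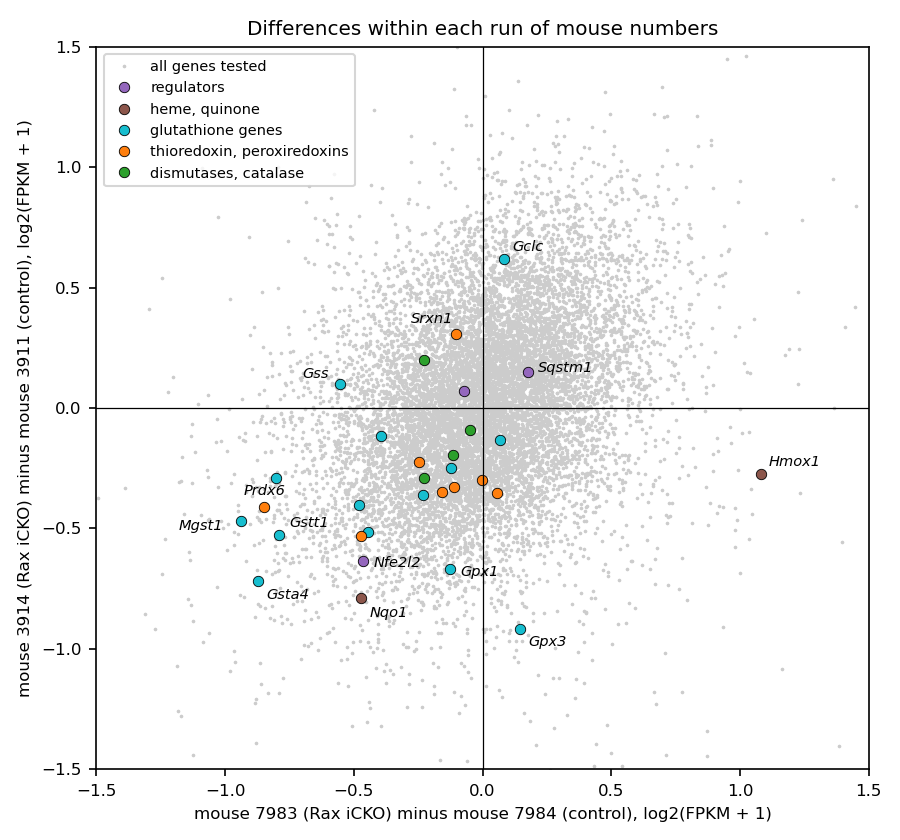
Difference in log2(FPKM + 1) between the *Rax* iCKO and the control mouse within each run of mouse numbers (7983 minus 7984 on the horizontal axis, 3914 minus 3911 on the vertical axis), 1 point per gene, with all genes tested in grey and the 31 genes coloured by role. Of the 31 genes, 21 lie at the lower left, 2 at the upper right (*Gclc* and *Sqstm1*) and 8 have opposite signs, and 124 grey genes lie outside the axes.

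Promoters of these genes were searched for the core of the antioxidant response element because several are textbook Nrf2 targets. The core was searched as TGACNNNGC on either strand (GCNNNGTCA when read on the opposite strand) in windows of 300 bases, 250 before and 50 after the annotated start, from RefSeq on GRCm38.p6. Of 32 windows found for 25 of the genes, 8 (25%) held a match, and 4071 of 32851 windows of all genes (12.4%) did. *Hmox1*, *Gclc*, *Gsr*, *Gsta4*, *Prdx6* and *Sod3* are not in the promoter table used here. Matches were found for 4 of the 10 genes with a window that were lower in *Rax* iCKO without overlap and for 4 of the 15 others. The promoters of these 4 lower genes are printed to show where the match lies, 5′ to 3′ along the gene, with the match in capitals.
*Nfe2l2* promoter, chr2:75704614-75704913, minus strand: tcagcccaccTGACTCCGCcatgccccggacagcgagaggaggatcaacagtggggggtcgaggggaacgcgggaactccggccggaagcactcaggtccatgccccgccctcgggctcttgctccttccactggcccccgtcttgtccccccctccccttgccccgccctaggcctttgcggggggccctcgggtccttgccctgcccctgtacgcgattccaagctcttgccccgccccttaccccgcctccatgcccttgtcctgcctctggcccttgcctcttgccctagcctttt
*Mgst1* promoter, chr6:138140277-138140576, plus strand: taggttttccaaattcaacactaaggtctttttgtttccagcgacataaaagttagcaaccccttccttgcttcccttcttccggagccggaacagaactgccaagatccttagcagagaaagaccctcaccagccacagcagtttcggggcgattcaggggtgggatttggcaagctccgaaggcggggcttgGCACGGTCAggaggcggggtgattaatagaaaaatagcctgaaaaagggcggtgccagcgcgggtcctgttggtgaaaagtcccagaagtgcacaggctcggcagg
*Prdx1* promoter, chr4:116685349-116685648, plus strand: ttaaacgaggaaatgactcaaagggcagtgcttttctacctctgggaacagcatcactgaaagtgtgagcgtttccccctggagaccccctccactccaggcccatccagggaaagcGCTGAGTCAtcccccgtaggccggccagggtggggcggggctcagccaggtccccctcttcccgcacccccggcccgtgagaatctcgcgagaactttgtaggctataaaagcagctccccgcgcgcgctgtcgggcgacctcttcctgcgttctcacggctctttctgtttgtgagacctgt
*Sod1* promoter, chr16:90220512-90220811, plus strand: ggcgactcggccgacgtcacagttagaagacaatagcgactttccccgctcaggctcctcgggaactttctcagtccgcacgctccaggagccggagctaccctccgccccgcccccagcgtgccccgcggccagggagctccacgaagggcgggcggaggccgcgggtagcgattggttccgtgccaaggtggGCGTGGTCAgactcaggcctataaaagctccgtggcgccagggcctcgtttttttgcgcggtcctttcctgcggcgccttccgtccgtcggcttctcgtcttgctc
The match began 240 bases before the start in *Nfe2l2*, 56 bases before the first of 2 annotated starts in *Mgst1*, 133 bases before the start in *Prdx1* and 56 bases before the start in *Sod1*. It read TGACTCCGC along *Nfe2l2* and lay on the opposite strand in the other 3. In *Prdx1* the match read TGACTCAGC on that strand and so also contains TGACTCA, the AP-1 motif, which the core overlaps. The 4 others with a match were *Gclm* (134 bases before the start), *Gstm5* (42 before), *Txnrd1* (92 before the second of its starts) and *Srxn1* (29 after the start), of which none was lower without overlap. *Nqo1* and *Gstt1*, among the 4 genes with the lowest unadjusted p, had no match in their windows. Response elements further from the start lie outside these windows.

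Further genes of the same pathways, from a list of 94 that held Nrf2 partners, other Nrf2 targets and other glutathione, thioredoxin and superoxide genes, also had mostly lower levels in *Rax* iCKO, apart from the Nrf2 partners. Of the 72 with enough signal to be tested, 0 had a limma adjusted p under 0.05 (0.0243% of all genes did). An unadjusted limma p under 0.05 was reached by 5, all lower in *Rax* iCKO, where 1.6% of all genes did so. Both *Rax* iCKO values were under both control values for 28 (38.9%), set beside 14.1% of all genes, and above them for 6, set beside 15.4% of all genes, and the median log2 fold change was −0.21. Against the same 14.1%, the count lower without overlap was 12 of 26 among other glutathione genes, 7 of 20 among other Nrf2 targets, 6 of 14 among other thioredoxin genes, 3 of 6 among other superoxide genes and 0 of 6 among Nrf2 partners. The partners had a median log2 fold change of 0.0558, with 4 of 6 above 0.

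The 5 lowest in that list without overlap comprised 2 glutathione genes and 1 gene each of the thioredoxin, superoxide and other Nrf2 target groups. *Txnip*, which encodes the protein that binds and inhibits thioredoxin, stood at 29.7, 22.2, 12.9 and 14.3 FPKM (log2 fold change −0.87, SE 0.24). *Ucp2*, a mitochondrial carrier, stood at 15.2, 17.2, 9.4 and 8.04 FPKM (−0.82, SE 0.23). *Cbr3*, a carbonyl reductase and Nrf2 target, stood at 43.2, 44, 26.1 and 26 FPKM (−0.72, SE 0.19). *Cbr3* had the closest replicates of the 5, and was the only one of the 72 to pass with the run as a replicate block (limma adjusted p = 0.0492). With that block 0.574% of all genes passed. *Gstk1*, the kappa-class transferase, stood at 51.4, 39.9, 27 and 28.3 FPKM (−0.69, SE 0.22), and *Gpx8*, a peroxidase of the endoplasmic reticulum, at 205, 185, 150 and 100 FPKM (−0.66, SE 0.27, and −0.37 without *Rax* iCKO 3914).

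The genes of that list that were higher without overlap were fewer. *Abcc1*, an exporter of glutathione conjugates, stood at 6.98, 5.91, 10.7 and 9.39 FPKM (0.57, SE 0.24), and *Chac1*, which degrades glutathione and is induced by the integrated stress response, at 1.09, 1.65, 1.7 and 3.76 FPKM (0.61, SE 0.37). The values of *Chac1* were low, and its log2 fold change was 0.20 without *Rax* iCKO 3914 and 1.02 without *Rax* iCKO 7983. *Gsta3* (0.32, SE 0.30), *Txnrd2* (0.17, SE 0.20) and *Sesn2* (0.16, SE 0.20) had log2 fold changes close to their standard errors, and that of *Gsta3* was 0.10 without *Rax* iCKO 3914 and 0.55 without *Rax* iCKO 7983, while that of *Sesn2* was 0.09 without *Rax* iCKO 7983.

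The composition of the sorted cells was followed with marker lists, since in bulk RNA fewer cells of a type and less RNA per cell cannot be told apart. All 15 Müller glial markers were detected, with summed levels of 16270 and 12690 FPKM in the controls and 10900 and 11030 FPKM in *Rax* iCKO, the highest of the cell type lists in each library. *Apoe* was the highest gene of that list, with a mean of 4342 FPKM over the 4 libraries. The median log2 fold change of the 15 markers was −0.32, 12 of 15 were lower in both runs (31.7% of all genes were) and 5 without overlap (14.1% of all genes were). The Müller glial list was therefore lower along with the antioxidant genes, and its part in their lower levels was not tested. Rod markers summed to 1540 and 1543 FPKM in the controls and to 1052 and 901.3 FPKM in *Rax* iCKO, with 9 of 10 lower without overlap, set beside the same 14.1%, and a median log2 fold change of −0.64. A list of 20 immediate-early and stress genes induced by tissue dissociation summed to 4742, 3796, 3387 and 2863 FPKM, with 11 of 17 tested genes lower without overlap, again set beside 14.1%, and a median of −0.52. The parts of the rod and dissociation genes in the antioxidant values were not tested either.

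Bipolar cell markers went the other way. They summed to 3877, 9073, 5268 and 7631 FPKM, with 5 of 8 higher in both *Rax* iCKO libraries without overlap, where 15.4% of all genes were, and a median log2 fold change of 0.34, and *Pcp2* held most of the sum. The gap between runs was the larger one, with mice 3911 and 3914 above the others. Cone markers summed to 142.2 to 199.3 FPKM and astrocyte markers to 463.8 to 691.3 FPKM. The endothelial list summed to 244.6 to 491.2 FPKM, nearly all from *Kdr*. Pigment epithelium markers, relevant because the *Rlbp1* driver acts there too, summed to 6.53 and 8.37 FPKM in the controls and to 10.1 and 11.7 FPKM in *Rax* iCKO, and the 2 of its 10 genes that could be tested were both higher in *Rax* iCKO in both runs (30.7% of all genes were), with a median log2 fold change of 0.43. Of the 10 genes, 1 (*Mlana*) was listed at 0 in all 4 libraries. Microglial markers differed mainly in *Rax* iCKO 3914, at 22.8 FPKM against 78.0 to 130.1 FPKM in the others. Amacrine markers summed to 10.2 to 17.2 FPKM and ganglion cell markers to 6.39 to 15.4 FPKM, with 1 of the 8 ganglion cell genes (*Pou4f1*) listed at 0 in all 4. Erythrocyte markers ranged from 0.316 to 14.7 FPKM, and neutrophil markers stood at 29.8 FPKM in control 7984 and at 0 to 1.88 FPKM in the others. The parts of these cell types in the antioxidant values were not tested.

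**Figure D4:**
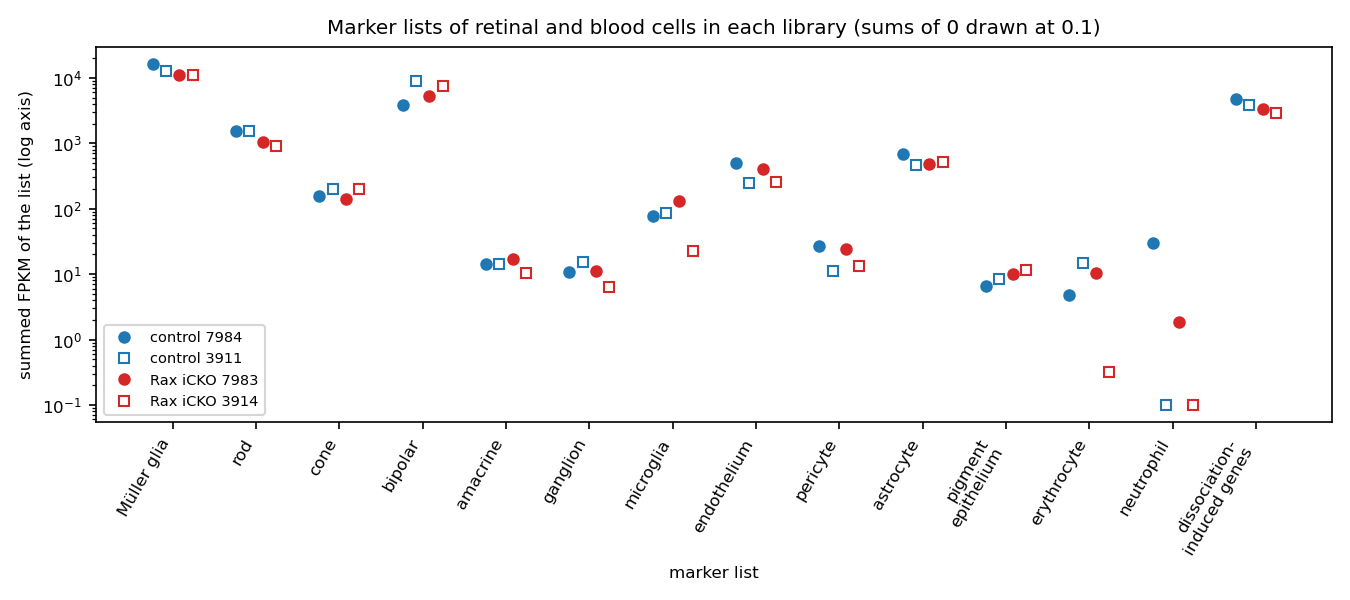
Summed FPKM of each marker list in each of the 4 libraries on a log axis, with controls in blue, *Rax* iCKO in red, circles for mice 7983 and 7984, squares for mice 3911 and 3914, and sums of 0 drawn at 0.1. Müller glial, rod and dissociation lists were lower in both *Rax* iCKO libraries, and the bipolar list stood higher in mice 3911 and 3914.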

How the data were processed

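RNA-seq reads of 101 bases from 1 end were obtained from mTFP-positive cells of 4 mice. Per the labels' processing notes, the authors used TopHat2 2.1.1, Bowtie2 2.2.8, SAMtools 0.1.18 and Cuffdiff 2.2.1 on mm10, and the deposited FPKM, 1 for every symbol of a library, are scaled to length and to that library's mapped reads. The paper's methods give other versions, Cufflinks and another RNA isolation than the labels, and whether strand was used in counting is not given in the sources used here. Libraries were made from amplified cDNA.

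FPKM were not rescaled. They summed to 529879 in control 7984, 616277 in control 3911, 492728 in *Rax* iCKO 7983 and 548695 in *Rax* iCKO 3914. The sum was thus lower in the *Rax* iCKO mouse of each run, and its part in the lower levels was not tested. Genes with a mean of at least 1 FPKM (12363 of 24322) were tested on log2(FPKM + 1) with limma 3.58.1 in R 4.3.3 (trend, no block) and Benjamini-Hochberg adjustment. Because of the added 1, fold changes of low genes are understated. The script was tested on simulated data. Genotypes followed the labels. Depth was estimated from steps of whole reads in genes with 1 transcript of at least 600 bases and at most 3 reads, where 83.3% to 86.2% of values lay within 0.15 of a whole number. FPKM without counts allow no counting interval. The labels give no shared replicate numbers, so the run of mouse numbers served as the block of an alternative. Other alternatives were the pseudocount, filters, quantile scaling, equal medians, no trend, leaving out each mouse, and a rule of ratio over 2 with an equal-variance test. Mice are separate animals, 2 per genotype. All 31 genes are named, and of the other pathway genes the 5 highest and 5 lowest without overlap. The genes and lists were chosen with earlier results of these data known. Promoter sequences are from RefSeq GRCm38.p6.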

Additional observations from a re-analysis of the deposited data

How the results depend on the processing

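With 2 libraries per genotype the counts rest on few values, and genes near 1 FPKM rest on few reads. The count with a limma adjusted p under 0.05 was 0 for the 31 genes, and 1 with runs of mouse numbers in the model as a replicate block (*Gsta4*, adjusted p = 0.0249), with which *Rax* (adjusted p = 0.0223) and *Cbr3* (adjusted p = 0.0492) also passed. The 2 pairs are too few to settle whether these numbers pair the mice. It was 0 under the other alternatives, including the ratio rule. The unadjusted count of 4 became 11 with the block, 2 with a mean of at least 50 FPKM, chosen after seeing the data (fewer genes tested), and 0 to 3 with 1 mouse left out (0 without *Rax* iCKO 7983, and 3 without control 7984, of which *Gclc* was higher). The median of −0.25 lay between −0.13 (without control 3911) and −0.40 (without control 7984), and was −0.16 after quantile scaling. For the other pathway genes, the unadjusted count of 5 became 8 without a filter, 26 with the block (23 lower, set beside 8.87% of all genes, and the others higher), 0 at 50 FPKM, and 1 to 8 with 1 mouse left out (3 without *Rax* iCKO 7983, 3 without control 7984, 8 without control 3911 and 1 without *Rax* iCKO 3914). The count of 13 genes lower without overlap was 12 with equal medians (without *Gpx4*), 13 after quantile scaling (with *Prdx3* in place of *Sod2*) and 7 at 50 FPKM, where fewer genes were tested, and the count of 0 higher was 1 after quantile scaling (*Sqstm1*). The shares of all genes were 15.2% lower and 13.8% higher with equal medians, and 14.5% lower and 16% higher after quantile scaling. The signs of *Keap1* (0.0158 after quantile scaling) and *Sod3* (0.20 with a pseudocount of 0.1, 0.11 after quantile scaling) turned. Quantile scaling also moved the log2 fold changes of *Sqstm1*, *Gpx4*, *Gstm5*, *Gstp1*, *Txn1*, *Prdx1*, *Prdx2*, *Prdx3*, *Prdx5*, *Prdx6*, *Srxn1*, *Sod1* and *Sod2* by over 1.5 times, to values given with those genes. Leaving out 1 mouse turned the sign in 14 genes, whose log2 fold changes ranged from −0.0497 to 0.0463 (*Keap1*), −0.0559 to 0.38 (*Sqstm1*), −0.13 to 0.83 (*Gclc*), −0.20 to 0.13 (*Gclm*), −0.48 to 0.0231 (*Gss*), −0.92 to 0.15 (*Gpx3*), −0.91 to 0.0249 (*Gstm5*), −0.40 to 0.0256 (*Gstp1*), −0.52 to 0.22 (*Txn1*), −0.31 to 0.00829 (*Txnrd1*), −0.59 to 0.14 (*Prdx5*), −0.0772 to 0.28 (*Srxn1*), −0.85 to 0.82 (*Sod3*) and −0.43 to 0.12 (*Cat*). The cause of these changes was not tested where none is given. The other 17 genes kept their sign with any 1 mouse left out, although 1 mouse moved the log2 fold changes of *Hmox1*, *Slc7a11*, *Gsr*, *Gpx1*, *Gpx4*, *Gstm1*, *Nfe2l2*, *Prdx2*, *Prdx3* and *Sod1* by over 1.5 times.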
